A study of Homo sapiens with 4 samples.

Results

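RAD21 peaks at lncRNA-only promoters are places where the cohesin subunit RAD21 was enriched beside the start of a long noncoding RNA (lncRNA) gene and away from every protein-coding start. A peak was kept when its summit, the base of highest signal, lay on chromosomes 1 to 22, within 1 kb of the 5′ end of a GENCODE v44 lncRNA gene and more than 1 kb from the 5′ end of every protein-coding transcript. The rule used position alone and no measured height. It kept 1648 of 55201 peaks on these chromosomes (2.99%), or of 56853 peaks in the whole list. These summits lay beside the starts of 1719 lncRNA genes. A single lncRNA start was within reach of 1524 of them, and 124 lay beside more than 1 start. For 103 peaks the starts were on both strands. Upstream, downstream and the lncRNA's strand below refer to the nearest start.

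The study mapped RAD21 by chromatin immunoprecipitation and sequencing (ChIP-seq) in HCT116, a human colorectal carcinoma cell line. The peaks described here come from 1 library of untreated wild-type cells. The other samples came from HCT116_RAD21_AID, which is 1 clone with an mAID degron integrated into the RAD21 gene and expression of the plant ubiquitin ligase OsTIR1, so that auxins trigger the removal of RAD21. They were an untreated ChIP, a ChIP after 6 h with indole-3-acetic acid and α-naphthaleneacetic acid (500 μM each) and the Input of the treated cells, and their enrichment was not analysed here. With 1 library there was no replicate, so no test was made, and each 95% interval covers counting error only. Peaks that share a start or lie side by side are not independent measurements.

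Cohesin is a ring-shaped complex that holds DNA strands together and extrudes chromatin loops, and RAD21 is the subunit that closes the ring. Loops often end where cohesin meets CTCF, a zinc finger protein whose binding sequence has a direction, and cohesin also gathers at active promoters. LncRNA genes have promoters like those of other genes, some in CpG islands and many of low activity, and several lncRNAs carry small nucleolar RNAs (snoRNAs) or microRNAs within their introns or exons.

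The sequences under the summits printed here are examples. All but that of MALAT1 come from very high peaks, so they do not represent the 1648 peaks. They were picked from the named peaks after their values were seen. Each is the summit base with 50 bp to either side, read from GRCh38 on the plus strand, 5′ to 3′, with capitals for the best match to the core CTCF consensus (exact or with 1 mismatch). The first pair holds exact matches and belongs to the 10 highest peaks. LINC00229 is at chr22:44626340-44626440 and ENSG00000275329 at chr9:136123020-136123120. ENSG00000289011, at chr17:36483093-36483193, was the highest of the 1648 peaks and holds a match with 1 mismatch, as do LINC02875 at chr17:61412515-61412615, ENSG00000248172 at chr17:49996696-49996796 and LINC00461 at chr5:88691070-88691170.
LINC00229: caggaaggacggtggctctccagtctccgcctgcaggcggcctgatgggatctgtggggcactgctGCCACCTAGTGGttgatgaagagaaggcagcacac
ENSG00000275329: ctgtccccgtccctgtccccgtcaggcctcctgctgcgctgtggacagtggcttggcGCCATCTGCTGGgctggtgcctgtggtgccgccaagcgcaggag
ENSG00000289011: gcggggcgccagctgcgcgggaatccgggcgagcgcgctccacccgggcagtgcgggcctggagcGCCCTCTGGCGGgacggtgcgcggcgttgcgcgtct
LINC02875: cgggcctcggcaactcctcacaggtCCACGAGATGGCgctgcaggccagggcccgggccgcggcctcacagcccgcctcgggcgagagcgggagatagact
ENSG00000248172: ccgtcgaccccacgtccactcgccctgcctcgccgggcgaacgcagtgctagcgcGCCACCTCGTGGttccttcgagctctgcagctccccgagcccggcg
LINC00461: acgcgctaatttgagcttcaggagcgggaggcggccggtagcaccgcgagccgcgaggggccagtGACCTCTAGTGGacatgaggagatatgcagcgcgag

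The next sequences are from a named lncRNA and from strong peaks, all without such a match. MALAT1 is at chr11:65497470-65497570, and its capitals mark a match to the NRF1 motif on the minus strand. LINC00543 at chr13:27953973-27954073 and LINC02332 at chr14:22557166-22557266 were among the 5 highest peaks with no CTCF consensus even with 1 mismatch, and are printed without capitals.
MALAT1: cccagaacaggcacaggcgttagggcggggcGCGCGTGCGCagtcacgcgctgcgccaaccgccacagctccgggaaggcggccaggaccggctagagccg
LINC00543: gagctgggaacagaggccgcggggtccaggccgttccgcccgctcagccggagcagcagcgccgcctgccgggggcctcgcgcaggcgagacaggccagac
LINC02332: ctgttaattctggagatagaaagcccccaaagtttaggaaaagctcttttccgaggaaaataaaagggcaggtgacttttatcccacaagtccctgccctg

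LncRNA starts carried RAD21 more often than nearby DNA, but less often than protein-coding starts. Of 14988 lncRNA-only starts, 1709 (11.4%, Wilson interval 10.9 to 11.9%) had a summit within 1 kb. When the same positions were moved by 10 kb, 5.37% upstream and 5.87% downstream had one, and moved by 50 kb the shares were 5.09 and 4.98%. Protein-coding gene starts had a summit in 33.5% (32.9 to 34.2%) of 19111 cases, and lncRNA starts within 1 kb of a protein-coding start in 42.8% of 3402. The gap was narrow for strong peaks: 3.77% (3.48 to 4.09%) of lncRNA-only starts and 4.78% (4.49 to 5.09%) of protein-coding gene starts had a summit with a fold enrichment of at least 10. Fold enrichment is the fragment count at the summit over the local background, with 1 added to both.

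**Figure D1:**
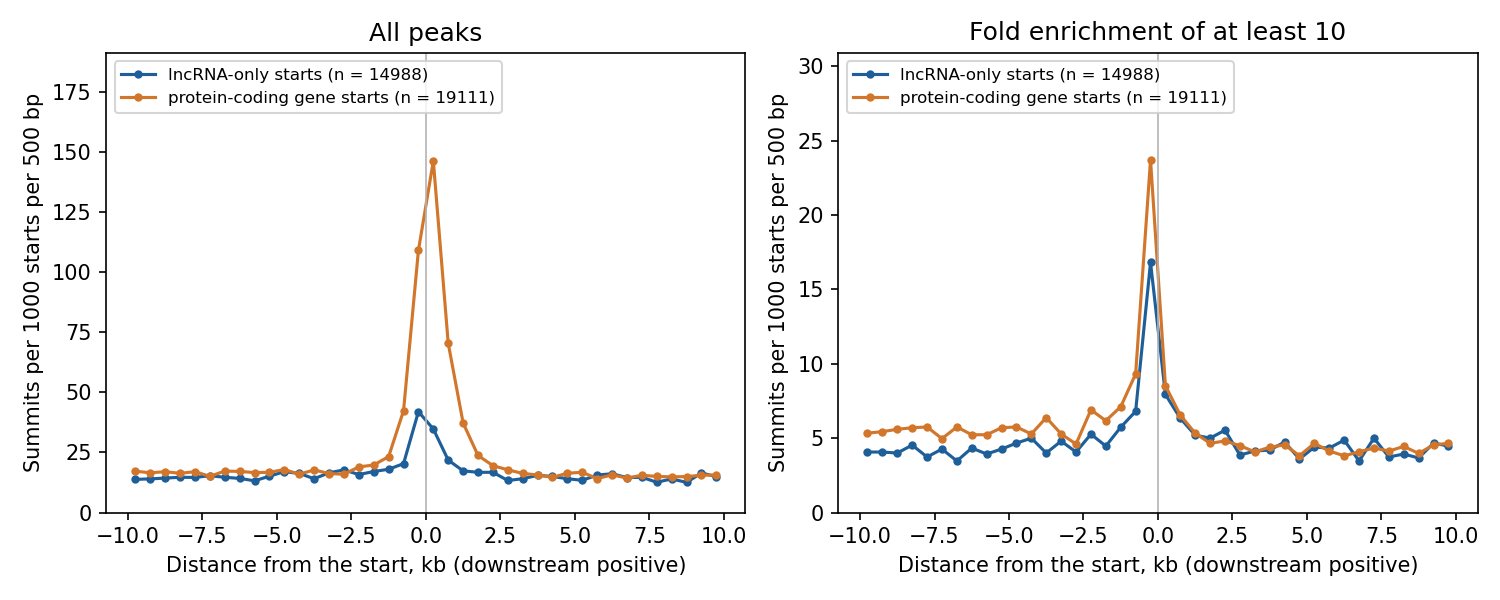
Peak summits per 1000 starts in 500-bp steps, plotted against the distance from the start in kb, for 14988 lncRNA-only starts and 19111 protein-coding gene starts, with all peaks on the left and those whose fold enrichment reached 10 on the right. The lncRNA curve reaches 42.0 summits per 1000 starts in the 500 bp upstream of the start, and 16.8 for the strong peaks.

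Base composition and gene naming went with how often a lncRNA start was bound. A start was called CpG-rich when the 150 bp to either side held at least 50% G and C and at least 0.6 of the expected CpG, a split chosen after the data were seen. CpG-rich starts had a summit in 36.2% (33.9 to 38.6%) of 1659 cases and CpG-poor starts in 8.31% (7.86 to 8.79%) of 13329. Host genes of small RNAs, with names that begin with SNHG or end in HG, were bound at 30 of 91 starts (33.0%, 24.2 to 43.1%). Genes with another kind of symbol, such as MALAT1, were bound at 144 of 613 starts (23.5%, 20.3 to 27.0%). The share was 12.4% for the antisense genes (-AS), 12.3% for the intergenic genes (LINC), 10.3% for the 10930 genes with no symbol and 5.60% for the intronic or overlapping genes (-IT, -OT). Divergent lncRNAs (-DT) hardly enter here, because 29 of 580 start more than 1 kb from every protein-coding start. Genes with 5 or more annotated transcripts were bound at 18.8% of starts and genes with 1 transcript at 9.75%. Starts outside protein-coding genes were bound in 12.8% of cases and starts inside one in 8.65%. Expression of these genes was not measured, so whether bound starts were active was not tested.

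The peaks themselves were as high as the average cohesin peak, with more very strong ones. The median fold enrichment was 5.89 (5.51 to 6.38), with quartiles of 3.40 and 14.1, and values ran from 1.31 to 85.3. All autosomal peaks had a median of 5.60, peaks at protein-coding starts only 3.77, peaks beside both kinds of start 3.54 and peaks away from both 6.09. A fold enrichment of at least 10 was reached by 567 of the 1648 peaks (34.4%, 32.2 to 36.7%), against 27.4% of all autosomal peaks, 15.4% at protein-coding starts only and 29.6% away from both. At 30 or more the share was 8.31% (7.08 to 9.74%) against 4.40% of all autosomal peaks. The median summit held 51 fragments, and the highest 165 peaks carried 36.9% of the summed fold enrichment.

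**Figure D2:**
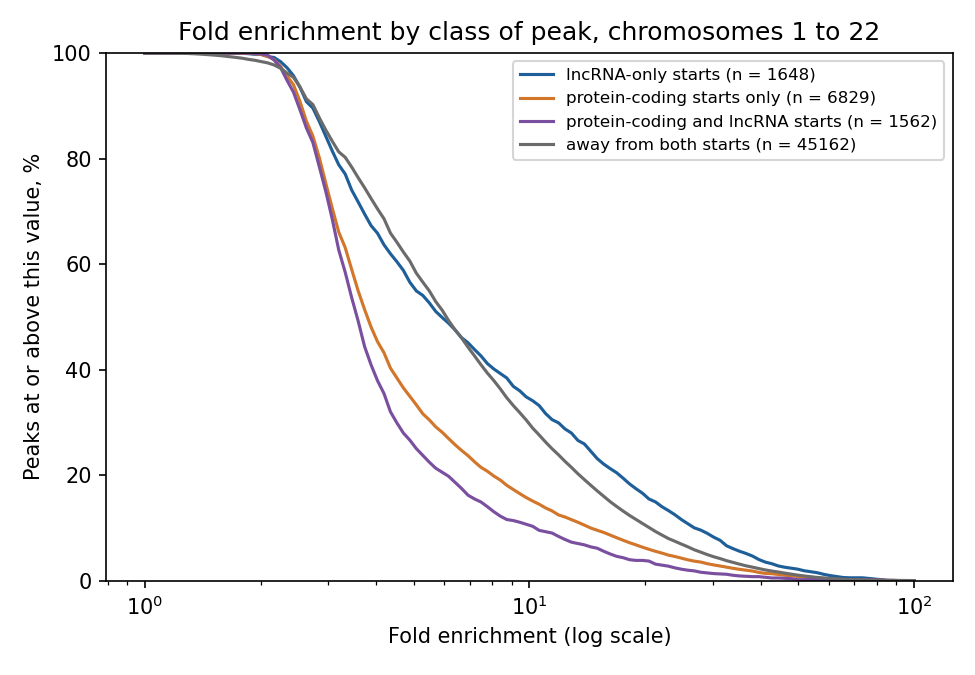
Share of peaks at or above each fold enrichment (log scale) for the 4 classes of autosomal peak. At a fold enrichment of 10 the line of the 1648 lncRNA-only peaks is the highest, with 34.4% of peaks, against 15.4 and 10.6% for the classes at protein-coding starts and 29.6% for peaks away from starts.

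Height differed with the place of the summit. Upstream summits numbered 860, downstream 784 (47.6%), and 4 fell on the first base, and the median distance from the start was 340.5 bp. The median fold enrichment was 7.39 (6.67 to 8.12) upstream and 4.78 (4.51 to 5.21) downstream. In the last 100 bp before the start 230 summits had a median of 10.7 (8.73 to 12.9), and 53.9% (47.5 to 60.2%) of them reached 10. In the first 100 bp after it 131 summits had a median of 4.43 (3.96 to 5.69), and 26.7% (19.9 to 34.9%) reached 10. These zones were set after the data were seen. The same step was present among CpG-rich summits (10.6 against 3.59), CpG-poor summits (10.9 against 5.60), summits with a CTCF match (15.4 against 9.67) and summits without one (5.16 against 3.52). Peaks at protein-coding starts showed it at a lower level, with medians of 4.87 before and 3.51 after the start.

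**Figure D3:**
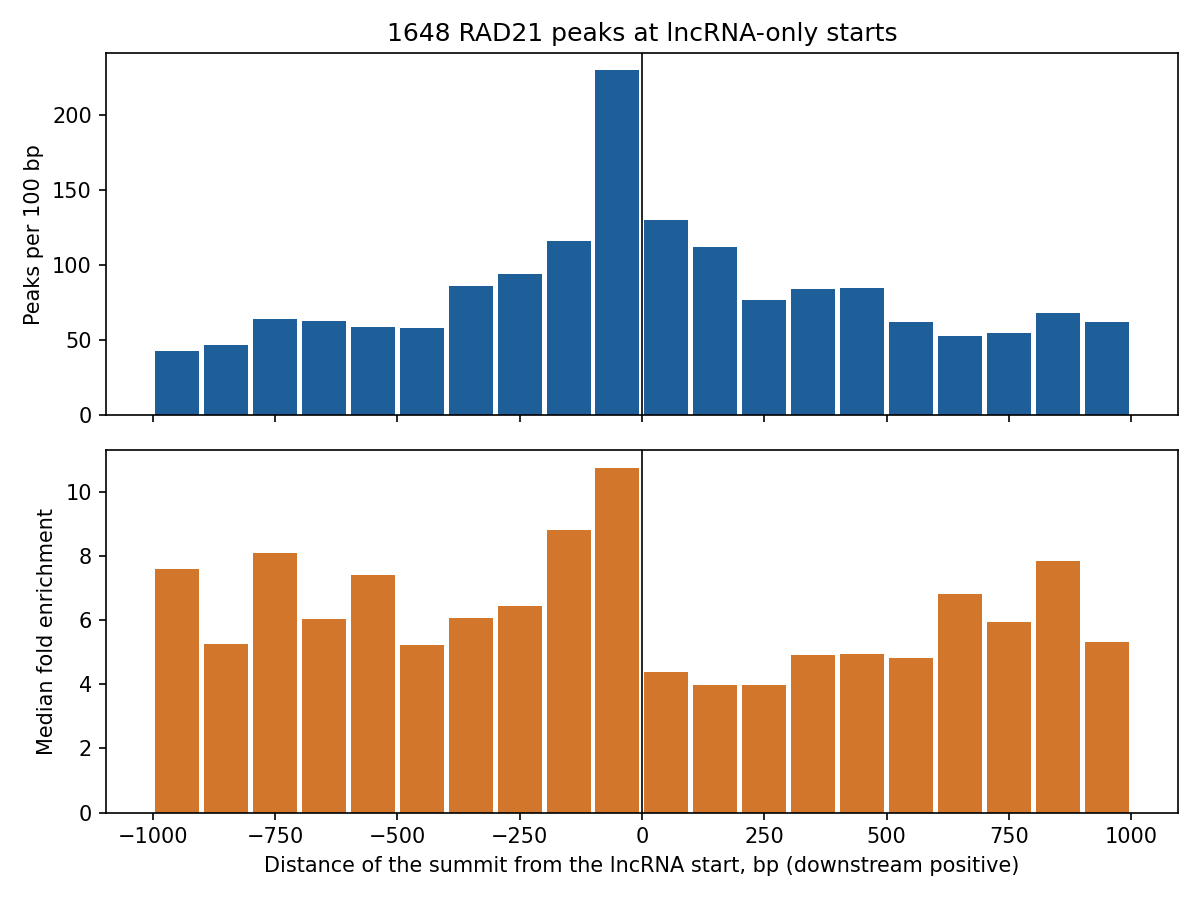
Number of summits (top) and median fold enrichment (bottom) in 100-bp steps around the lncRNA start, with downstream distances positive. The tallest bars of both panels are those of the last 100 bp before the start, with 230 summits and a median of 10.7.

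CTCF, at which cohesin loops often end, was looked for by its core consensus within 50 bp of the summit on both strands. An exact match was present in 185 of the 1648 peaks (11.2%, 9.79 to 12.8%), against 11.4% of all autosomal peaks, 4.28% at protein-coding starts only and 12.9% away from both. The share was thus near the background. With 1 mismatch allowed it was 36.8% against 38.5%. Windows 5 kb to either side held 0.0608 and 0.730%. Peaks with an exact match had a median fold enrichment of 15.0 (13.1 to 17.8), those with 1 mismatch 10.9 and those without a match 4.02 (3.78 to 4.20). A match is a description of the letters, and CTCF binding was not measured.

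CpG content separated the peaks further. The 150 bp to either side of the summit held a median of 58.1% G and C, between the 66.1% of peaks at protein-coding starts only and the 49.8% of peaks away from both. CpG-rich summits made up 35.0% of the lncRNA-only peaks, 68.9% of those at protein-coding starts and 6.59% of those away from both. The 42 CpG-rich summits with an exact CTCF consensus had a median fold enrichment of 20.4, and 88.1% reached 10. The 431 CpG-rich summits without a match had a median of 3.57, and 17.2% reached 10. Among CpG-poor summits the medians were 14.0 with an exact match and 4.64 without one. Among CpG-rich summits alone, 30.5% of the lncRNA-only peaks and 12.9% of those at protein-coding starts reached 10, and the share was higher, at 38.6%, in CpG-rich peaks away from both kinds of start. Among CpG-poor summits it was 36.5% of the lncRNA-only peaks and 28.9% of those away from both.

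**Figure D4:**
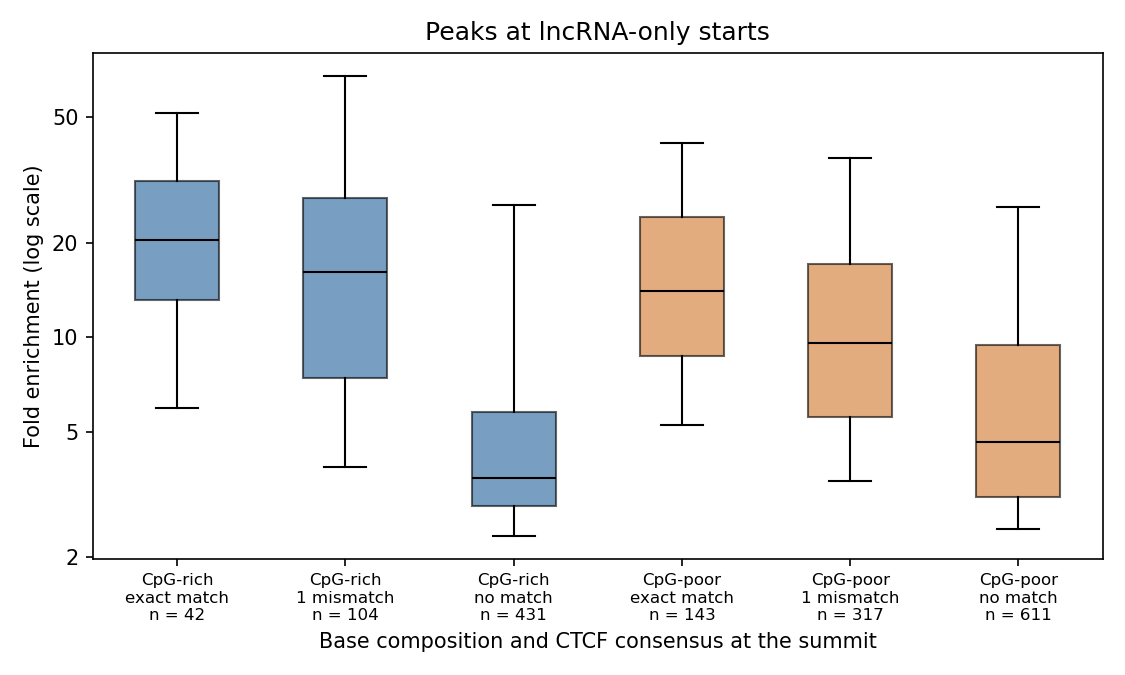
Fold enrichment (log scale) of the 1648 peaks, split by base composition and by the CTCF consensus. Boxes give quartiles, lines medians and whiskers the range without the lowest and highest 5%; the medians fall from 20.4 to 3.57 in the CpG-rich and from 14.0 to 4.64 in the CpG-poor summits between an exact match and none.

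The CTCF consensus close to the start read more often in the direction of the lncRNA than against it. Of the 185 exact matches, 108 (58.4%, 51.2 to 65.2%) lay on the lncRNA's own strand. With 1 mismatch allowed, 74 of 112 matches (66.1%, 56.9 to 74.2%) in the last 100 bp before the start and 31 of 39 (79.5%, 64.5 to 89.2%) in the first 100 bp after it did so. In the zones farther out it was 54.3 and 54.9% upstream and 48.3 and 51.3% downstream, in the order of distance. At protein-coding starts the share in the last 100 bp was 69.5% (63.3 to 74.9%) of 239 matches, and in the first 100 bp after the start it was 37 of 81 (45.7%, 35.3 to 56.5%).

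Motifs of promoter factors were rare. The NRF1 motif was within 100 bp of 1.46% of summits and in 0.0608% of the windows 5 kb away, the SP motif GGGGCGGGG in 2.67 and 0.547%, and the ETS motif CCGGAAGT in 0.667 and 0.0912%. The AP-1 motif TGANTCA was in 5.76% of summits and 6.02% of those windows. YY1 (AAGATGGC) was in 1.21 and 0.760%, and CRE (TGACGTCA) in 0.182 and 0.0912%. Both strands were read. Over all autosomal peaks the shares were 0.444% for NRF1, 1.73% for SP, 0.493% for ETS, 5.44% for AP-1, 1.72% for YY1 and 0.161% for CRE. Peaks at protein-coding starts only had NRF1 in 1.86%, SP in 5.90% and ETS in 1.65%. The windows 5 kb away were not matched for G and C or CpG. Among summits without a CTCF match, NRF1 was in 3.25% of the CpG-rich and 0.164% of the CpG-poor.

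The 10 highest peaks were mostly at lncRNAs without a symbol, and all 10 held the CTCF consensus exactly or with 1 mismatch. ENSG00000289011 on chromosome 17 was first, with a fold enrichment of 85.3 from 650 fragments (exact Poisson interval 601 to 702) over a background of 6.63, and its summit was 15 bp upstream of the start. ENSG00000278595 on chromosome 20 reached 84.2 and ENSG00000240980 on chromosome 2 reached 83.0. LINC02875 reached 81.3 with 936 fragments, in an exon 814 bp downstream of the start. It lies beside TBX2, a developmental T-box transcription factor, and its peak was 3002 bp wide. LINC00229 on chromosome 22 reached 77.5 with 534 fragments, 971 bp upstream. CCDC144BP, a transcribed pseudogene, reached 74.9. ENSG00000248172, beside the homeobox gene DLX3, reached 67.8 with 901 fragments. Most of these summits (7 of 10) were upstream of the start, and 7 of 10 consensus matches read in the direction of the lncRNA. Over all 1648 peaks, 52.2% of summits were upstream and 56.8% of 606 matches read that way. With 10 peaks, these counts do not set the highest apart in side or direction. The consensus, exact or with 1 mismatch, was in 36.8% of the 1648 peaks. Among peaks with a fold enrichment of 20 and above it was in 66.0%. The peaks of ENSG00000275329, ENSG00000260430 and ENSG00000287325 had fold enrichments of 77.0, 75.2 and 79.9.

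Strong peaks without the consensus also existed. LINC00543 reached 63.3 with 462 fragments, in an exon 497 bp downstream of its start, and its nearest protein-coding start is that of CDX2, a transcription factor of the intestinal epithelium. ENSG00000290461 reached 61.9, ENSG00000226954 reached 60.6, and ENSG00000260498 and LINC02332 both reached 59.2. The absence of these letters says nothing of CTCF at these sites.

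Listed lncRNAs had a summit more often than the average lncRNA start, but mostly low peaks. The lists were chosen with earlier results of these data known, so this share is a description only. Of 174 genes in 8 lists, 160 were autosomal lncRNA genes in the annotation, 39 had a lncRNA-only peak and 18 had a summit only beside a protein-coding start. Of the 117 whose own start is lncRNA-only, 40 (34.2%, 26.2 to 43.2%) had a summit within 1 kb, against 11.4% of all 14988 such starts. The share was 36.2% over all CpG-rich starts and 23.5% over genes with another kind of symbol. Base composition of the listed starts was not compared. The 42 lncRNA-only peaks at listed genes had a median fold enrichment of 3.61, against 5.89 over the 1648. Of these 42, 5 reached 10, against the background of 27.4%. Low medians were not particular to the lists: 4.01 at genes named as host genes, 4.07 at genes with another kind of symbol and 4.41 at CpG-rich summits. The antisense (5.49) and LINC (5.86) genes had higher medians. At genes with another kind of symbol 21.8% of peaks reached 10.

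**Figure D5:**
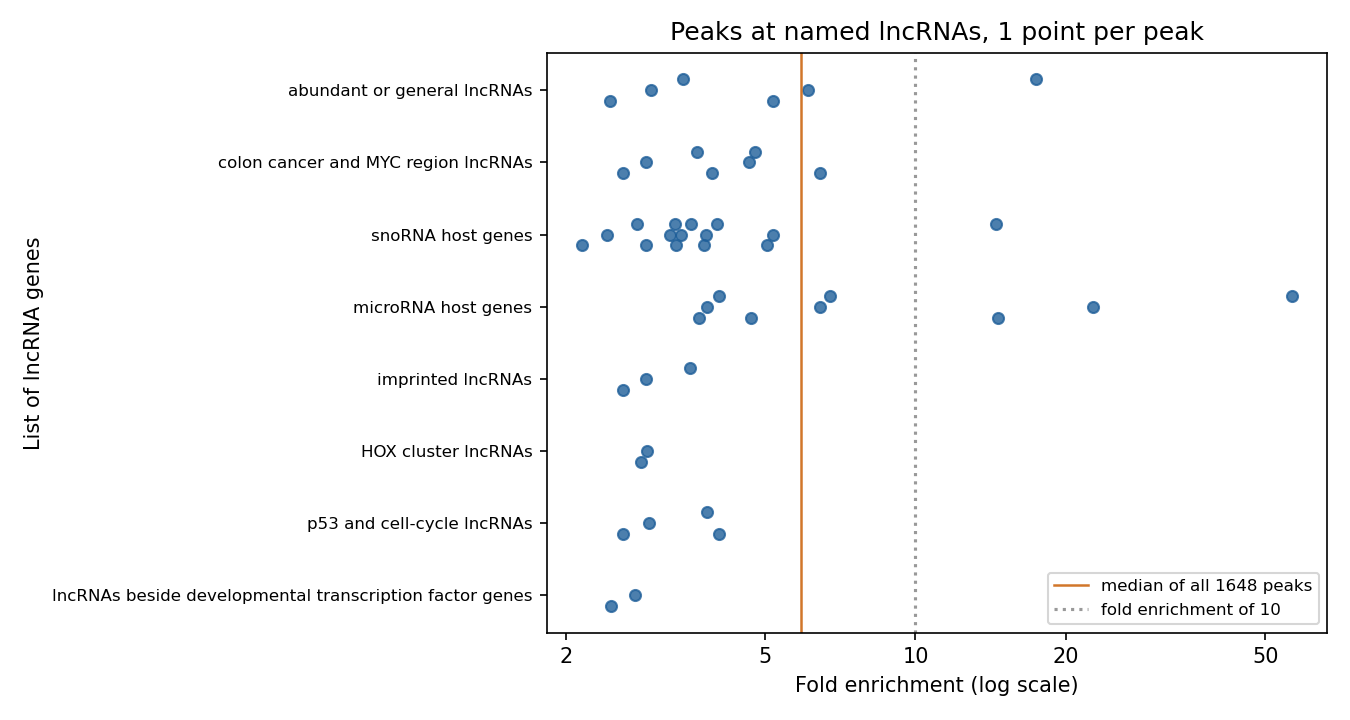
Fold enrichment (log scale) of each lncRNA-only peak at a listed lncRNA gene, 1 point per peak and list, so a gene in more than 1 list appears more than once. Most points lie left of the median of 5.89, and the 5 peaks that reach 10 are LINC00461, MIR193BHG, MIAT, MIR194-2HG and SNHG20.

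MicroRNA host genes held the strongest of them, with 9 peaks at 8 of 29 genes with a lncRNA-only start (27.6%, 14.7 to 45.7%) and 3 that reached 10. Over all lncRNA-only starts, 11.4% had a summit. A fold enrichment of 10 was reached by 34.4% of the 1648 peaks and 27.4% of all autosomal peaks, so 3 of 9 was near both. LINC00461, a host gene of the miR-9 family next to MEF2C, had a fold enrichment of 56.5 from 484 fragments, 63 bp upstream of its start. MIR193BHG had 22.6 and MIR194-2HG, host of microRNAs abundant in intestinal epithelium, had 14.6 with a summit 980 bp upstream. MIR100HG had 6.76, MIR31HG 6.45, MIR9-1HG 4.70 and MIR200CHG, host of microRNAs that keep the epithelial state, 3.69. DLEU2 had peaks of 3.83 and 4.06, the second nearer to the start of ENSG00000274270.

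SnoRNA host genes were bound at 13 of 20 lncRNA-only starts (65.0%, 43.3 to 81.9%), against the 11.4% over all such starts. The share was 33.0% over all genes named as host genes and 36.2% over CpG-rich starts. The peaks at snoRNA host genes were low, with a median of 3.40 over 15 peaks. SNHG20 was the exception at 14.5 with 145 fragments, 43 bp upstream, over an exact consensus. The others ran from 2.16 at SNHG25 to 5.19 at DANCR, whose peak is nearer to the start of LINC01618. SNHG5 had peaks of 2.78 and 3.57 and SNHG16 had 2.90 and 3.81. The peak at SNHG21 (3.31) is nearer to ENSG00000286817.

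The list of abundant or general lncRNAs gave a median of 4.31 over 6 peaks. These were at 6 of 12 genes with a lncRNA-only start (50.0%, 25.4 to 74.6%), against 11.4% over all such starts. The share was 36.2% over CpG-rich starts and 23.5% over genes with another kind of symbol. MIAT had 17.4 with 119 fragments, 963 bp upstream. MALAT1, one of the most abundant nuclear RNAs, had 2.45 with 27 fragments over a background of 10.4, 120 bp upstream. NORAD, which binds Pumilio proteins, had 3.44, TERC, the telomerase RNA, 2.96 and EPB41L4A-AS1 6.11. NEAT1 and GAS5 had no summit within 1 kb of the 5′ end of the annotated gene. Values for other transcript starts of these genes are not given.

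Colon cancer and MYC region lncRNAs had peaks at 7 of 23 genes with a lncRNA-only start (30.4%, 15.6 to 50.9%). The share over all such starts was 11.4%, also for the lists that follow. Their median was 3.91 and none reached 10. CCAT2 had 4.78, CRNDE, which is raised in colorectal tumours, 4.65, LINC00511 3.66 and SLCO4A1-AS1 2.61. Imprinted lncRNAs had peaks at 3 of 12 such genes (25.0%, 8.89 to 53.2%), KCNQ1OT1 (2.90), MEG3 (2.61) and PEG13 (3.54). H19 had none within 1 kb of the 5′ end of the annotated gene. HOX cluster lncRNAs had them at HOXA10-AS (2.83) and HOXB-AS1 (2.91), and 5 more had a summit only beside a protein-coding start. Of the 9 HOX lncRNAs with a lncRNA-only start, 3 (33.3%, 12.1 to 64.6%) had a summit of either kind within 1 kb. The p53 and cell-cycle list had peaks at 3 of 8 such genes (37.5%, 13.7 to 69.4%), DLEU1 (2.93), DLEU2 and MEG3. Among lncRNAs beside developmental transcription factor genes, EMX2OS (2.75) and LHX1-DT (2.46) had one and 5 had a summit only beside a protein-coding start. Of the 15 in that list with a lncRNA-only start, 2 (13.3%, 3.74 to 37.9%) had a summit of either kind, near the 11.4% over all such starts.

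A few genes had several summits. Only 63 lncRNA genes had 2 or more, and ENSG00000283360 on chromosome 1 alone had 3. The other genes named below were the first 4 by fold enrichment of 62 with 2. Its peaks were low, at 2.18, 1.83 and 2.22, over backgrounds of 55.9, 41.7 and 25.6 fragments, and the 100 bp at these summits occur 2, 4 and 5 times in the genome. Paired peaks could differ widely: ENSG00000274937 had 47.2 and 5.58, LINC00609 had 4.49 and 32.8, ENSG00000288885 had 12.5 and 29.9, and ENSG00000254639 had 2.68 and 29.2. These pairs were ranked by their higher peak, which favours a lower partner, so they do not describe all 62. The widest peaks were at ENSG00000272482 (3357 bp, 42.6), LINC02875 and ENSG00000247033 (2945 bp, 20.1).

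Most of the 1648 summits (1213, 73.6%) lay outside protein-coding genes, 334 lay in one on the strand opposite to the lncRNA and 92 in one on its own strand. Of all 14988 lncRNA-only starts, bound or not, 9854 lay outside protein-coding genes, so a majority outside was already the case for the starts. The median distance to the nearest protein-coding start was 30566 bp. Repeated sequence and raised background touched a minority. The 100 bp at the summit occurred more than once in 127 peaks (7.71%, against 6.39% of all autosomal peaks), with a median fold enrichment of 4.41 against 6.15 for the others. The background was at least 2 times its floor of 5.90 fragments in 6.61% of peaks, against 8.07% of all autosomal peaks. At ROCK1P1 it was 2024 fragments, and its fold enrichment of 1.31 was the lowest. Peaks at genes tagged as overlapping a pseudogene numbered 146 (8.86%), with a median of 4.07 against 6.20 for the others. Tagged lncRNA-only starts had a summit in 21.3% of 731 cases and untagged ones in 10.9% of 14257. The summit sequence occurred more than once in 29.5% of the tagged peaks and 5.59% of the others. By chromosome, the share of lncRNA-only starts with a summit ran from 6.77% on chromosome 4 to 16.2% on chromosome 9.

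The 1 kb limit did not fall at a step in height. The 103 peaks 900 to 1000 bp from a lncRNA start had a median fold enrichment of 6.09, and the 89 just outside, at 1000 to 1100 bp, had 6.63. On the protein-coding side, 25 peaks kept at 1000 to 1100 bp had a median of 4.16 and 32 left out at 900 to 1000 bp had 5.06.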

How the data were processed

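RAD21 ChIP-seq peaks of 1 wild-type HCT116 library were used. The authors trimmed reads with Trimmomatic 0.39, aligned them to GRCh38 with Bowtie2 2.5.3, removed duplicates with Picard and ran MACS2 2.2.9.1 with Input as control and a q-value limit of 0.05. Which Input served as the control is not given in the sources used here. The deposited list gives a score, a fold enrichment (a ratio) and −log10 p-values and q-values. Fragments and background were solved from fold enrichment and p-value with scipy 1.17.1, and came out whole (within 0.05 of a step) for all but 14 peaks. The method was tested on 5000 simulated peaks. Depth is not in the list. The lowest background, 5.90 fragments, corresponds to about 74600000 ChIP fragments if the fragment length was that of the narrowest peak, 222 bp, and the effective genome size was that of the study. Starts came from GENCODE v44. Shares have Wilson intervals and medians order-statistic intervals (95%). The text names the 10 highest peaks, peaks at listed genes, the 5 genes with most peaks (ties by fold enrichment), the 3 widest peaks and the 5 highest without the consensus. X-linked peaks were left out of all counts. Members and gene lists were chosen with earlier results of these data known. Alternatives were 3 stricter q-values, limits of 500 bp and 2 kb, other start definitions, the whole peak, low background and the consensus with 1 mismatch. Soft-masked repeats could not be given because the genome was in upper case.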

Additional observations from a re-analysis of the deposited data

Results flagged for a closer look

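Chromosome X lay outside the counts above, and 18 of its 1135 peaks (1.59%) met the same rule of position there, against 2.99% on chromosomes 1 to 22. They are listed here because peaks met the rule in data the counts did not use. The share is above the 0.264% that a count of 0 would allow, which shows only that such peaks exist. The number of lncRNA-only starts on chromosome X is not given, so these shares do not compare how often starts were bound. Their fold enrichment had a median of 8.26 and ran from 2.46 at DANT2 to 21.3 at LINC02601, and 7 of the 18 reached 10, where the share over all autosomal peaks was 27.4%. FIRRE, a lncRNA gene with many CTCF sites, had 9.28 from 63 fragments, and WASIR1, whose summit sequence occurs 3 times in the genome, had 17.4. An exact CTCF consensus was present in 2 of the 18, near the 11.4% over all autosomal peaks.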

How the results depend on the processing

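Under the 12 alternatives run, the downstream share moved by less than its counting interval and the count of 1648 peaks by less than 1.5 times. The share of lncRNA-only starts with a summit was 11.4%, and became 11.1% for a q-value limit of 0.01, 10.5% for 0.001, 9.27% for 1e-05, 8.17% when summits had to lie within 500 bp, 15.8% with 2 kb, 13.8% from the starts of all lncRNA transcripts, 13.1% with the whole peak and 10.7% with background below 2 times the floor. The next values were chosen after seeing the data: 10.6% with summit sequences in 1 copy only and 10.9% without genes tagged for a pseudogene. The median fold enrichment (5.89) was 6.72, 7.97 and 5.22, and the share that reached 10 (34.4%) was 37.5, 42.6 and 31.1%, at q-values of 0.001 and 1e-05 and with 500 bp. The stricter q-values remove the lowest peaks by construction. At 1e-05 the share in all autosomal peaks was 34.0%. The CTCF share (11.2%) was 13.7% at 1e-05 and 36.8% with 1 mismatch. The median G and C content (58.1%) was 57.1% at 1e-05, 60.1% with 500 bp, 56.8% with 2 kb and 57.5% with all lncRNA transcripts. The cause of the shifts with distance was not tested. Restricting genes to annotation levels 1 and 2 left every lncRNA gene in place. No paired analysis was possible because there was 1 library. Depth is inferred, and peaks of few fragments are the least precise: the quartiles were 28 and 125 fragments.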
